A study of Mus musculus with 56 samples.

Results

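The LPS receptor and signalling adaptor genes described here are Cd14, Ly96, Myd88, Tirap, Ticam1, Irak1, Irak2, Irak3, Irak4 and Traf6. Their ChIP-seq peaks were taken from 56 peak lists of mouse bone marrow-derived macrophages (BMDMs) by the gene name that the deposited lists give each peak. The 10 genes were named by 1286 peaks of 1610519 in all, and 20352 genes were named by at least 1 peak. BMDMs are primary macrophages grown from marrow, here of mice 8 to 12 weeks old on a C57BL/6 background, by 6 days with L929 supernatant, and the labels describe control cells as differentiated with MCSF. In the 1 hr experiment, ctrl cells and cells given IL-4 at 20 ng/ml for 1 hr (1hIL4) were profiled for the active histone mark H3K27Ac, the deacetylases HDAC1, HDAC2 and HDAC3, the acetyltransferase p300, the lineage factor PU.1 and 2 phosphorylated forms of RNA polymerase II, RNAPII-pS5 of initiation and RNAPII-pS2 of elongation. In the pretreatment experiment, RNAPII-pS5, RNAPII-pS2 and the NF-κB subunit p65 were profiled in unstimulated cells (ctrl_ctrl), after 24 hr of IL-4 (24hIL4_ctrl), after 1 hr of LPS (ctrl_1hLPS) and after 24 hr of IL-4 followed by 1 hr of LPS (24hIL4_1hLPS). The labels give LPS at 100 ng/ml, and the methods state its concentration in nM, so that the dose is uncertain. Each of the 28 groups held 2 samples, and all groups shared the double cross-linking of the cells. The study's figure legends call its ChIP-seq replicates independent and biological. Nothing in the labels says that the 2 came from separate animals, so that p-values measure the spread between these samples alone.

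LPS is handed by the surface protein CD14 to MD-2, the product of Ly96, which sits on the receptor TLR4. The receptor then recruits the adaptors TIRAP and MyD88, which assemble the IRAK kinases and the ubiquitin ligase TRAF6 on the way to NF-κB, or the adaptor TRIF, the product of Ticam1, on the way to interferon genes. IRAK-M, the product of Irak3, is an inactive kinase known as a brake on this pathway in macrophages, and IL-4 is a cytokine that turns macrophages toward an alternative state through STAT6.

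Each list gave a score for each peak. For 52 lists it was a −log10 value of the peak caller, and for the 4 H3K27Ac lists a score of HOMER. The scores of all peaks named for a gene in a sample were summed, and this summed score is the level used below, written for replicate 1 and then replicate 2. Sequencing depth was not given and moves such scores. The number of peaks in a sample ranged from 26982 to 27797 for H3K27Ac, from 44787 to 69360 for p300 and from 9556 to 38955 for p65. The first p300 ctrl sample stood apart with 44787 peaks. In the 4 RNAPII-pS2 lists made at 1 hr, the treatment written in each peak's name is the reverse of the label, so that directions from them are given as labelled. The labels also give HDAC3 the antibody code of H3K27Ac. Of 8 macrophage markers, 6 had a peak in every RNAPII-pS5 sample, and the other 2, Adgre1 and Spi1, were named by no peak in any list. Peaks in every RNAPII-pS5 sample were also found at 2 of 4 T cell and 1 of 3 fibroblast markers. They were found at 0 of 3 B cell, 0 of 4 neutrophil and 0 of 3 erythroid markers, and the neutrophil marker Ly6g was named in no list. A peak over a marker gene thus did not by itself mark the cell type.

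Most peaks of the receptor and adaptor genes lay outside promoters, as did most peaks of all genes. Introns held 612 of the 1286 peaks (47.6%, against 40.9% of all peaks in the lists), intergenic sequence 264 (20.5%, against 39.0%), promoters 240 (18.7%, against 13.1%), the ends of transcripts 67, 3′ UTRs 50, exons 43 and 5′ UTRs 10. Ly96 was named by 251 peaks, Irak2 by 225, Irak3 by 184, Cd14 by 166, Traf6 by 139, Myd88 by 103, Irak4 by 102, Ticam1 by 81 and Tirap by 34. In GRCm38/mm10 coordinates, Cd14 (ENSMUSG00000051439) lies at chr18:36725067-36726798 on the − strand and Ly96 (ENSMUSG00000025779) at chr1:16688051-16709611 on the + strand. The adaptors lie at chr9:119335934-119341411 (Myd88, − strand), chr9:35184551-35200291 (Tirap, − strand) and chr17:56269319-56276786 (Ticam1, − strand). The kinases lie at chr15:94543643-94581815 (Irak4, + strand), chrX:74013914-74023918 (Irak1, − strand), chr6:113638467-113695026 (Irak2, + strand) and chr10:120141648-120202130 (Irak3, − strand), and Traf6 at chr2:101678429-101701669 on the + strand. Irak1, which encodes a kinase of the MyD88 complex, was named by a single PU.1 peak with a score of 5.33 in the second 1 hr IL-4 sample. Another 47 peaks over its span on the X chromosome carried the names of Mir5132 and Mir718, so that Irak1 could not be followed by name. Names of neighbours also took 179 peaks over Irak2 (Tatdn2), 72 over Irak3 (Helb), 40 over Tirap (Dcps), 30 over Myd88 (Acaa1a) and 43 over Irak4 (Twf1 and Pus7l).

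Joined across antibodies when within 200 bp, the named peaks formed 81 elements. The 25 elements of Ly96 lay on both sides of its promoter and far into the intergenic sequence beyond the gene, while Irak2 had 14, Irak3 12, Traf6 11, Cd14 6, Irak4 4, Myd88 3, Ticam1 3, Tirap 2 and Irak1 1. All 9 antibodies had a peak at 12 of the elements. Besides the promoters of Cd14, Ly96 and Ticam1, these lay, by distance from the start site, at Cd14 +6.6 kb, Ly96 +14.6 and +59.0 kb, Myd88 +5.4 kb, Irak2 +6.5 kb, Irak3 +11.6 and +37.8 kb and Traf6 +21.0 and +54.6 kb. A further 35 elements had peaks of 1 antibody, of which 17 were of PU.1 and 6 of p65. The 6 of p65 were at Ly96 +5.8, +46.7 and +49.6 kb, Irak2 +4.6 and +17.6 kb and Traf6 +30.3 kb. Distances are positive in the direction of transcription, so that +6.6 kb of Cd14 lies beyond the end of that short gene.

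The first comparison asked what 1 hr of IL-4 did to chromatin at these genes. H3K27Ac was called lower at Cd14, Irak2 and Irak3, 3 of 9 genes tested, against 32.8% called among all genes. Within single genes some sites were called and others were not. In these bulk samples a weaker mark in each cell and a mark in fewer cells cannot be told apart.

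At Cd14, the LPS-binding coreceptor, the summed H3K27Ac score was 627 and 613 in ctrl cells and 494 and 519 after 1 hr IL-4. At Irak2, a kinase that sustains MyD88 signalling, it was 353 and 342 in ctrl cells against 254 and 244. At Irak3, it was 654 and 646 against 476 and 457. The groups did not overlap at any of these genes. Here and below, the share of all genes or sites whose groups lay apart was not computed, and 2 samples against 2 can lie apart with no change. In limma on log2 scores centred between samples, the change was −0.29 ± 0.06 (SE) for Cd14 (adjusted p = 0.0362), −0.47 ± 0.05 for Irak2 (adjusted p = 0.0121) and −0.47 ± 0.05 for Irak3 (adjusted p = 0.0119), n = 2 against 2 throughout. Of the 9 genes tested, 3 were called, all lower, and 6 had an estimate below 0. Over all 13035 genes tested, 32.8% were called. The median change was −0.17 for the 9 genes and −0.01 for all genes on the log2 scale.

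**Figure D1:**
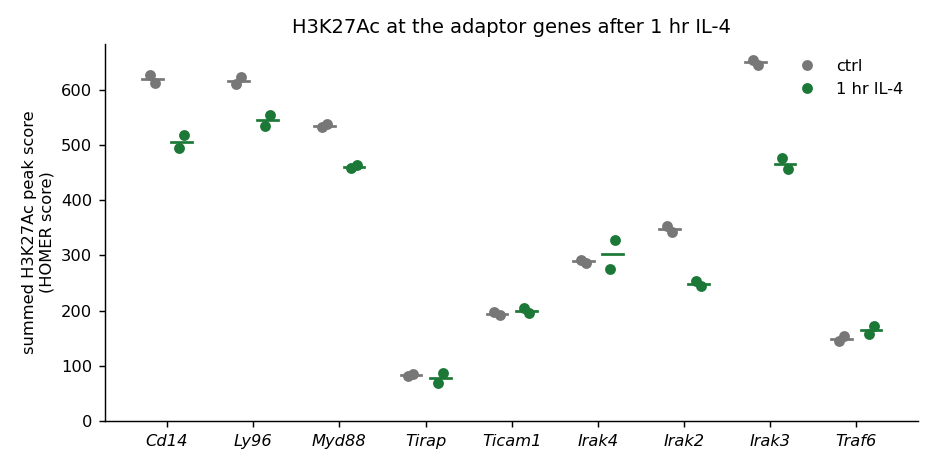
Summed H3K27Ac peak score (HOMER score, vertical axis) of the 9 genes with H3K27Ac peaks. Each point is a sample, grey for ctrl and green for 1 hr IL-4, and the bars are means of 2 samples. The 2 groups lie apart at Cd14, Ly96, Myd88, Irak2, Irak3 and Traf6, and overlap at Tirap, Ticam1 and Irak4. The share of all genes that lie apart was not computed.

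Ly96, the MD-2 gene, had 611 and 623 against 535 and 555, and its change of −0.17 did not pass (adjusted p = 0.0969 in limma). Myd88, the central adaptor, had 532 and 538 against 459 and 463. Its change of −0.21 had an adjusted p of 0.0546 in limma, and of 0.0494 without centring. Tirap, Ticam1, Irak4 and Traf6 were not called. The 4 samples bear the 3 calls together, since leaving out any 1 of them left 0 calls, with adjusted p of up to 0.136 for Cd14, 0.0678 for Irak2 and 0.0666 for Irak3, while their estimates stayed below 0. The Cd14 call was also lost when intergenic peaks were left out (−0.29, adjusted p = 0.0638) and with a replicate block (−0.29, adjusted p = 0.088). With 2 samples against 2, an exact permutation test of a single gene cannot go below p = 0.333.

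Single H3K27Ac sites showed where the mark changed. Of 20 sites tested, 7 were lower and 1 was higher at adjusted p of at most 0.05 in limma, against 40.3% called among all 28929 sites. Without centring 9 were lower and 1 was higher, against 41%. At Irak3, the intronic site at +37.4 kb had 354 and 347 in ctrl cells and 197 and 202 after IL-4 (log2 change −0.76, adjusted p = 0.00426). Its promoter site at −0.5 kb had 170 and 188 against 134 and 126 (−0.40, adjusted p = 0.0367). The intronic site at +11.6 kb had 129 and 110 against 145 and 128, which overlapped and was not called. The estimates at these 3 sites of 1 gene thus ran from −0.76 to 0.24.

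At Irak2 the site at +0.4 kb had 188 and 175 against 116 and 116 (log2 change −0.59, adjusted p = 0.0091), whereas the site at +6.6 kb, with 165 and 166 against 138 and 128, did not pass (adjusted p = 0.0619). At Myd88 the site at +5.4 kb, annotated as intergenic, had 138 and 133 against 95.7 and 103 (−0.40, adjusted p = 0.0217). The Myd88 promoter site had 394 and 405 against 363 and 360, a change of −0.09 that did not pass. At Ly96 the promoter site had 542 and 550 against 496 and 520 and did not pass. The 2 called sites of Ly96 were the low intronic site at +8.3 kb, with 15 and 14.7 in ctrl cells and no peak after IL-4, and the intergenic site at +59.0 kb, with 27.9 and 28.4 against 17.2 and 16.3 (−0.70, adjusted p = 0.00669). With a floor 4 times as high both of these Ly96 changes came to 0.05. That floor lay above every score of these sites, so that this value is the centring shift alone.

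Traf6, the ubiquitin ligase downstream of the IRAKs, had sites that moved in opposite directions. Its site at +0.4 kb had 62 and 63.4 in ctrl cells and 98.3 and 107 after IL-4 (log2 change 0.76, adjusted p = 0.00625 in limma). Its site at +20.9 kb, in the 3′ UTR, had 70 and 74 against 46.7 and 49.6 (−0.53, adjusted p = 0.0133). The groups did not overlap at either site, and their sum over the gene was not called. The site at +54.6 kb had 12.9 and 16.6 against 12.3 and 15.6.

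**Figure D2:**
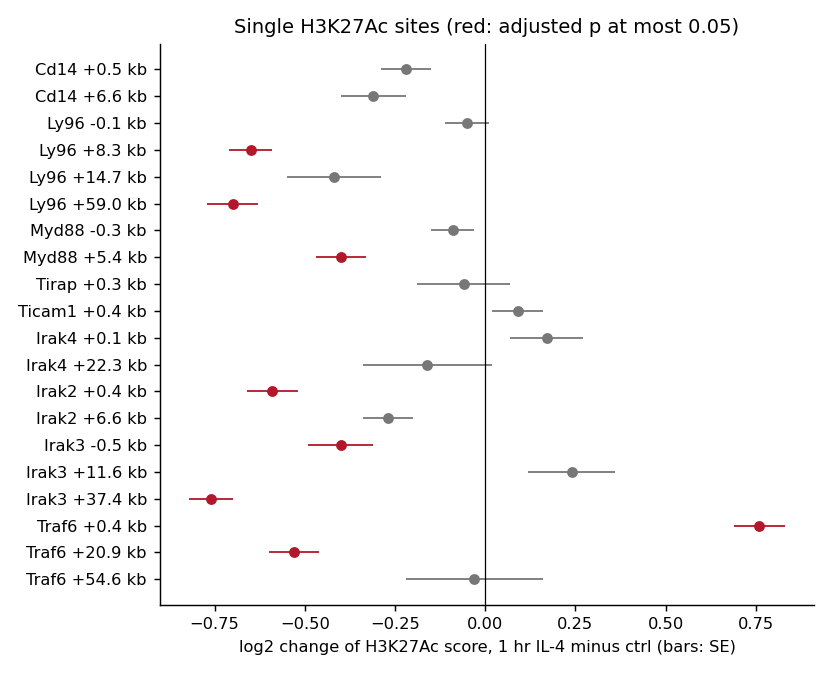
Log2 change of the H3K27Ac score after 1 hr IL-4 against ctrl (horizontal axis) at the 20 tested sites of 9 genes, named by distance from the start site. Points are limma estimates, bars are SE and red marks adjusted p of at most 0.05. The highest estimate is 0.76 at Traf6 +0.4 kb and the lowest −0.76 at Irak3 +37.4 kb.

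The other antibodies of the 1 hr experiment gave no gene-level call. In limma 0 of 9 genes were called for HDAC1, 0 of 7 for HDAC2, 0 of 7 for HDAC3, 0 of 9 for PU.1, 0 of 9 for p300 and 0 of 9 for RNAPII-pS2, each against 0% of all genes, and 0 of 9 for RNAPII-pS5 against 1.39%. At an unadjusted p of at most 0.05 the counts in that order were 0 (8.86% of all genes), 0 (9.47%), 0 (15.4%), 1 (10.2%), 3 (25.8%), 1 (16.1%) and 0 (14.6%). The PU.1 gene was Irak4, the kinase that starts the IRAK cascade, with 39.3 and 28.9 in ctrl cells and 18.2 and 17.4 after IL-4 (log2 change −1.21, adjusted p = 0.285 in limma). The RNAPII-pS2 gene was Irak3, with 3.88 and 3.7 in samples labelled ctrl and 15.1 and 24.3 in samples labelled 1hIL4 (log2 change 2.42, adjusted p = 0.077 in limma), as labelled. The p300 genes were Ly96, Irak2 and Irak4, where the first ctrl sample was far below the other: Irak2 had 187 and 541 in ctrl cells against 347 and 351, and its estimate changed sign without centring, from −0.72 to 0.13. The estimates of Ly96 (−0.59) and Irak4 (−0.56) likewise came to 0.26 and 0.29.

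Cd14 was called for none of these 7 antibodies at 1 hr. Its HDAC3 score was 32.5 and 24.1 in ctrl cells and 83.3 and 44.4 after IL-4, its PU.1 score 190 and 177 against 258 and 232, and its RNAPII-pS5 score 49 and 49.4 against 47.4 and 47. At Irak2 the HDAC1 score was 45 and 46.9 against 25.8 and 18.6, while the median log2 change of HDAC1 over the genes shared by all 4 samples was −0.46.

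At single sites, p300 gave 2 calls of 40 tested, against 2.48% of all sites, and neither was called without centring, against 0%. At Irak3 +10.1 kb, an intronic site, p300 had 19 and 58.5 in ctrl cells and 9.45 and 11.2 after IL-4 (log2 change −2.37, adjusted p = 0.0483 in limma). At Traf6 +3.1 kb, in an intron, there was no p300 peak in ctrl cells and a score of 74.1 and 63.8 after IL-4 (5.01, adjusted p = 0.0498), and PU.1 at the same place went from no peak to 7.14 and 9.31, which did not pass (adjusted p = 0.215). The size of a change against an absent peak depends on the floor score put in its place. RNAPII-pS5 gave 2 lower calls of 23, against 5.43%, at Cd14 +2.4 kb (5.52 and 4.78 against no peak, adjusted p = 0.0471) and Ly96 +59.0 kb (10.6 and 4.86 against no peak, adjusted p = 0.0454), and neither was called without centring. The Cd14 +2.4 kb change came to 0.11 both with a floor 4 times as high and with gaps of up to 500 bp joined. The raised floor lay above both of its scores. The Ly96 +59.0 kb site thus had lower scores of both H3K27Ac and RNAPII-pS5 after 1 hr IL-4. HDAC1, HDAC2, HDAC3, PU.1 and RNAPII-pS2 gave 0 site calls in limma, against 0% of all sites. At an unadjusted p of at most 0.05 the counts in that order were 1 of 21 (14% of all sites), 1 of 15 (13.9%), 1 of 15 (19.3%), 4 of 46 (12.1%) and 4 of 16 (21%).

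The pretreatment experiment asked how IL-4 changed the response of macrophages to LPS. p65 scores were higher after LPS at each of the 8 genes tested before centring. IL-4 alone lowered p65 at Irak3 and came with low peaks at Myd88 and Irak4. After LPS, pretreated cells had higher p65 than untreated cells at 5 of 30 sites and lower at 7, against 31.3% of all sites called. The higher sites included 4 of Ly96. The lower ones included 3 intronic sites of Irak3, of which +37.9 kb did not pass without centring. The comparisons share samples, and their values are given side by side.

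For p65, scores of the 3431 genes with a peak in all 8 samples were themselves higher after LPS, by a median of 1.64 on the log2 scale, and by 2.29 after LPS in pretreated cells. Centring removes this shift, so that a centred value tells how a gene moved against those genes, and an uncentred value how its score moved. Pretreated cells given LPS lay 0.50 above untreated cells given LPS by the same median. Their p65 lists held 36738 and 38955 peaks, against 26305 and 26820 after LPS alone. After LPS alone, 4 of 8 genes were called, all higher, against 28.1% of 12312 genes. Without centring 8 of 8 were higher, against 51.6%. After 24 hr IL-4 alone, 2 genes were higher and 1 was lower, against 5.96% (also 2 and 1 without centring, against 6.02%). Between pretreated and untreated cells after LPS, 0 were higher and 2 lower, against 12.5% (0 and 1 without centring, against 19.9%). LPS in pretreated cells gave 2 higher and 1 lower, against 26.7%, and 7 higher and 1 lower without centring, against 72.2%. The difference between the 2 LPS responses was called for 2, both negative, against 7.42% (1 positive and 2 negative without centring, against 13.5%).

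**Figure D3:**
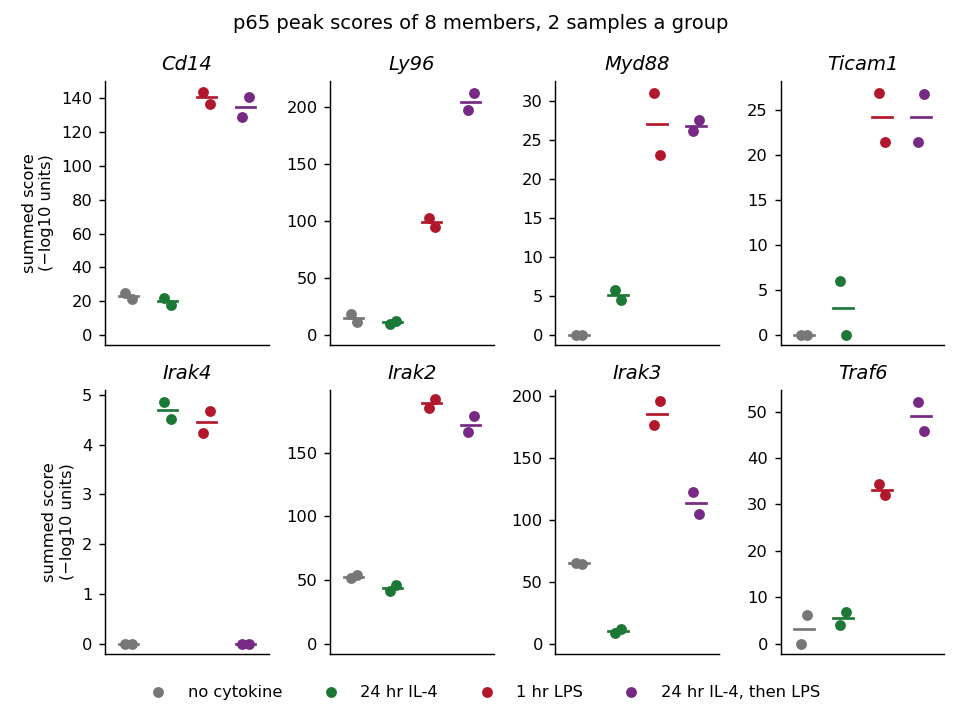
Summed p65 peak score (−log10 units, vertical axes that differ between genes) of 8 genes in the 4 groups of the pretreatment experiment. Each point is a sample and each bar the mean of 2, with 0 where no peak was named for the gene. LPS samples lie above samples without LPS at Cd14, Ly96, Myd88, Ticam1, Irak2, Irak3 and Traf6, and Ly96 is highest after IL-4 and LPS.

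Of the receptor genes, Cd14 gained p65 after LPS. Its summed p65 score was 24.8 and 21.4 in unstimulated cells, 22.1 and 17.5 after IL-4, 144 and 137 after LPS, and 129 and 141 after both. The change with LPS was 0.97 ± 0.23 centred (adjusted p = 0.0246 in limma) and 2.61 uncentred, and the difference between the LPS responses was −0.48 ± 0.33 (adjusted p = 0.469), with a 95% interval from −1.29 to 0.34. Over its promoter p65 had 7.14 and 2.02, then 5.56 and 4.08, then 41.7 and 41.3, then 49.1 and 37.9 in the same order of groups, and its sites at +6.5 and +13.1 kb also gained p65 with LPS (adjusted p = 0.0246 and 0.0116).

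Ly96 had its highest p65 scores in pretreated cells given LPS, over 10 and 8 peaks against 5 and 4 after LPS alone. Its summed score was 18 and 11.5 in unstimulated cells, 9.51 and 12.4 after IL-4, 103 and 94.5 after LPS, and 198 and 213 after both, so that the pretreated samples lay above all others. The change with LPS was 1.14 ± 0.33 (adjusted p = 0.0421), and with LPS in pretreated cells 1.95 ± 0.33 (adjusted p = 0.00971 in limma). Uncentred they were 2.78 and 4.24 (adjusted p = 0.000888 and 0.000137). The first did not pass when samples were centred before missing peaks were filled (adjusted p = 0.0514) or in 4 other settings (up to 0.0901). Pretreated against untreated cells after LPS gave 0.55 ± 0.33 centred (adjusted p = 0.368) and 1.06 uncentred (adjusted p = 0.0615), neither of which passed.

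Single sites showed where. The Ly96 promoter had 50.9 and 45.5 after LPS and 41.6 and 40.6 after both. The intronic site at +14.5 kb had 27.7 and 31.5 after LPS and 71.3 and 71 after both, with no peak in unstimulated cells, and was not called in that contrast. At +7.7 kb the scores were 13.7 and 13.3 against 31.1 and 44, a change of 1.19 ± 0.21 (adjusted p = 0.00805 in limma), and no sample without LPS had a peak. At +8.3, +46.7 and +49.6 kb the pretreated LPS samples were also higher than the LPS samples (adjusted p = 0.00414, 0.0409 and 0.000954). The site at +49.6 kb had a p65 peak in the 2 pretreated LPS samples alone, with 12.4 and 8.07. It had no peak of any other antibody. The lists of those 2 samples also held the most p65 peaks in all.

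Among the adaptors, Myd88 had no p65 peak in unstimulated cells, 5.75 and 4.51 after IL-4, 31 and 23.1 after LPS and 26.1 and 27.5 after both. Changes were 2.10 ± 0.26 with IL-4 (adjusted p = 0.0117 in limma) and 2.71 ± 0.26 with LPS (adjusted p = 0.00185), and the difference between the LPS responses was −2.61 ± 0.37 (adjusted p = 0.0164). These sizes and SEs rest on the floor given to the absent peaks. With a floor 4 times as high, which lay above 1 of the 2 IL-4 scores, the IL-4 change came to 0.21 (adjusted p = 0.723 in limma). With all peaks over the gene's span, the 30 named for Acaa1a included, the change with LPS was −0.50 (adjusted p = 0.167). The low IL-4 peak lay at +5.5 kb, and the promoter had p65 after LPS alone (15.4 and 12.1) and after both (12.7 and 19.0). Ticam1, the TRIF gene, had no peak in unstimulated cells, 5.94 and none after IL-4, 26.9 and 21.5 after LPS and 21.5 and 26.8 after both, all at its promoter, with a change of 2.56 ± 0.66 with LPS (adjusted p = 0.0297 in limma) and of 4.20 uncentred (adjusted p = 0.00405). It was 4.67 when samples were centred before missing peaks were filled, which did not pass (adjusted p = 0.0593). Tirap had a p65 peak in 1 sample of 8, with a score of 4.58 after both treatments, and was not tested.

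Of the kinases, Irak4 had low p65 peaks at its promoter in 4 samples, 4.86 and 4.52 after IL-4 and 4.23 and 4.68 after LPS, and none in unstimulated cells or after both treatments. Limma gave 1.98 ± 0.21 for IL-4 (adjusted p = 0.0083), −2.27 ± 0.21 for pretreated against untreated cells after LPS (adjusted p = 0.0026) and −4.13 ± 0.21 for LPS in pretreated cells (adjusted p = 0.000834). Uncentred these were 1.84 (adjusted p = 0.0092), −1.76 (adjusted p = 0.00299) and −1.84 (adjusted p = 0.000532). Its scores stood against a lowest p65 score of 1.31 in the lists. Where no peak was called the value was this filled score, so that these SEs and p-values can understate the spread between samples. Centring also moves a filled value. A floor 4 times as high lay above every Irak4 score and made all samples equal, so that it could not test these changes. The values it gave, 0.15 for IL-4 and −1.64 for LPS (0.12 in the main fit), were the centring shift alone. Irak2 had 51.2 and 53.8 in unstimulated cells, 41.4 and 45.9 after IL-4, 185 and 192 after LPS and 166 and 179 after both, and its LPS change was 0.21 centred (adjusted p = 0.505) and 1.84 uncentred (adjusted p = 0.000908).

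Single sites of Irak2 gave further values. At +6.6 kb p65 had 102 and 80.1 after LPS and 62.1 and 66.8 after both. At +4.6 kb it had 19.9 and 16 against 37.6 and 32.5. At +11.8 kb it had 6.37 and 16 after LPS and no peak in the other 6 samples, and at +21.3 kb 10.5 and 16.7 after LPS and none after both. Pretreated against untreated LPS samples were lower at +11.8 kb (−3.21 ± 0.43, adjusted p = 0.00272) and +21.3 kb (−3.60 ± 0.68, adjusted p = 0.0106 in limma), and neither +4.6 nor +6.6 kb passed in that contrast.

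Irak3 had less p65 after IL-4. Its summed score was 65.3 and 64.8 in unstimulated cells, 8.63 and 11.5 after IL-4, 177 and 196 after LPS, and 123 and 105 after both. The 4 groups did not overlap. IL-4 changed the score by −2.56 ± 0.28 (adjusted p = 0.0084 in limma), which kept its call in each of the 8 leave-outs and in 12 of 13 other settings, with only the 4 samples compared as the exception (adjusted p = 0.069). Pretreated against untreated cells after LPS differed by −1.21 ± 0.28 centred (adjusted p = 0.0432) and by −0.71 uncentred (adjusted p = 0.0997). The LPS change was −0.12 centred and 1.52 uncentred.

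The intronic Irak3 site at +10.1 kb was among them. p65 scored 37.9 and 36.4 there in unstimulated cells, had no peak in either sample after 24 hr IL-4, scored 84.7 and 102 after LPS and 52.1 and 42.5 after both. The IL-4 change was −4.63 ± 0.22 (adjusted p = 0.00405 in limma) and pretreated against untreated LPS samples differed by −1.25 ± 0.22 (adjusted p = 0.00737). This is the site where p300 was called lower after 1 hr IL-4. That p300 call did not pass without centring and included the ctrl sample that stood apart. About 1 kb away, at +11.1 kb, p65 appeared after LPS, with 26.1 and 24.8, and was lower after both, with 6.4 and 9.76 (−1.95 ± 0.23, adjusted p = 0.00172). At +37.9 kb, also intronic, p65 had 29.6 and 25.6 after LPS and 17 and 10.7 after both (−1.30 ± 0.35, adjusted p = 0.0401), which did not pass without centring (−1.03, adjusted p = 0.0735). The Irak3 promoter did not share this, with 36.3 and 43.4 after LPS and 47.2 and 37.4 after both.

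Traf6 had no p65 peak and 6.13 in unstimulated cells, 4.11 and 6.8 after IL-4, 34.5 and 32 after LPS and 52.1 and 45.9 after both. Its LPS change was 1.91 ± 0.72 centred (adjusted p = 0.0898 in limma) and 3.55 uncentred (adjusted p = 0.00901). The intergenic site at +30.3 kb had p65 after both treatments alone, where the lists also held the most peaks, with 16.9 and 15.7 (3.37 ± 0.17 against LPS, adjusted p = 0.000306 in limma). The site at +21.1 kb had p65 after LPS alone, with 5.04 and 6.11 (−2.35 ± 0.19 in the same contrast, adjusted p = 0.000477). The site at +54.5 kb, with 26.9 and 23.5 against 25 and 30.2, overlapped.

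Over all members 30 of 36 p65 sites were tested. LPS gave 14 higher and 0 lower, against 31.4% of 37556 sites, and IL-4 gave 2 higher and 1 lower, against 4.22%. Pretreated against untreated cells after LPS gave 5 higher and 7 lower, against 31.3%, and 6 of each without centring, against 34.6%. LPS in pretreated cells gave 13 higher and 1 lower, against 38.2%, and 22 and 1 without centring, against 66.4%. The difference between the LPS responses gave 4 positive and 5 negative calls, against 23.3%, and 6 and 5 without centring, against 27.6%. The 5 sites that were higher in pretreated cells were 4 of Ly96 and 1 of Traf6, and the 7 that were lower were 3 of Irak3, 2 of Irak2, 1 of Irak4 and 1 of Traf6.

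**Figure D4:**
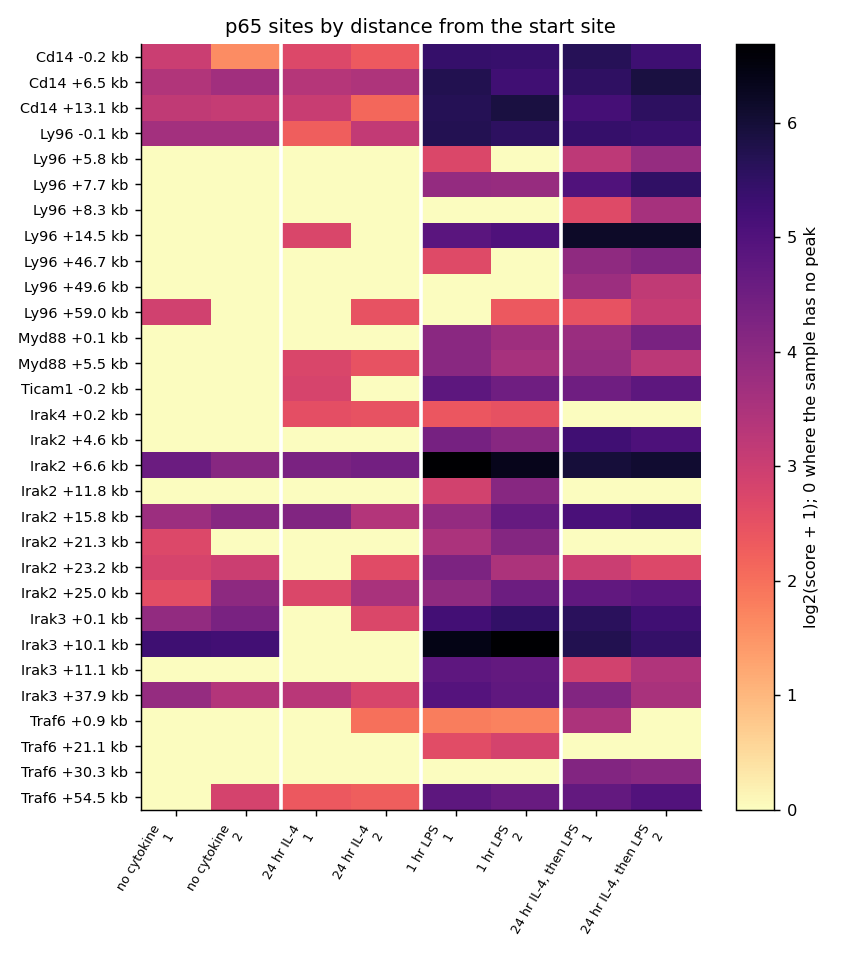
p65 scores at the 30 tested sites (rows, by gene and distance from the start site) in the 8 samples of the pretreatment experiment (columns). Colour gives log2(score + 1), with 0 where the sample has no peak. Irak3 +10.1 kb is empty after 24 hr IL-4 alone, and Ly96 +49.6 kb and Traf6 +30.3 kb are filled only after IL-4 and LPS.

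Sequences under 6 of the intronic and intergenic p65 sites described above are given so that these elements can be compared. Irak3 +10.1 and +11.1 kb and Ly96 +7.7 and +49.6 kb were called between pretreated and untreated cells after LPS, and Ly96 +14.5 and Irak2 +4.6 kb were not. Each is the 200-base window around the centre of the joined p65 site, from the + strand of GRCm38/mm10, read from the RefSeq sequence of GRCm38.p6. Capitals mark matches, on either strand and read separately, to the κB consensus bound by p65, to a STAT palindrome of TTC and GAA parted by 4 bases, the spacing that STAT6 prefers, and to GGAAGT, the core bound by PU.1. Over 51401 windows of all p65 sites, the κB consensus was in 10.6%, the palindrome in 8.27% and GGAAGT in 33.5%, and over the 36 member windows in 4, 5 and 18.
Irak3 +10.1 kb, intron, chr10:120191276-120191475: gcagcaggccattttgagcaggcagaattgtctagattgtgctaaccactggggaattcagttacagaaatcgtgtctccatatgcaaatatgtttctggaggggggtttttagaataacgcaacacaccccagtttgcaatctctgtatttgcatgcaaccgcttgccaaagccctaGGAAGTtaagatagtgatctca
Irak3 +11.1 kb, intron, chr10:120190284-120190483: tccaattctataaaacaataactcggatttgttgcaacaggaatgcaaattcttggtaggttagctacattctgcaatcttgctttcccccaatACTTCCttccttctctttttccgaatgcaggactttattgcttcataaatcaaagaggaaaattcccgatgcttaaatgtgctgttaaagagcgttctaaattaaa
Ly96 +7.7 kb, intron, chr1:16696035-16696234: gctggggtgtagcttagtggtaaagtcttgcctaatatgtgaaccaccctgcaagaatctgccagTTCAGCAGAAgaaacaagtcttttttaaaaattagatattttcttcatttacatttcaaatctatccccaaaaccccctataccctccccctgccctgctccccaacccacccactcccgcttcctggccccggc
Ly96 +14.5 kb, intron, chr1:16702912-16703111: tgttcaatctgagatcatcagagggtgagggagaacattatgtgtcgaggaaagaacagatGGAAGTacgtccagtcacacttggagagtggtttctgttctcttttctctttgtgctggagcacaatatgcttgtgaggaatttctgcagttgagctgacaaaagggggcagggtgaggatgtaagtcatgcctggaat
Ly96 +49.6 kb, intergenic, chr1:16737951-16738150: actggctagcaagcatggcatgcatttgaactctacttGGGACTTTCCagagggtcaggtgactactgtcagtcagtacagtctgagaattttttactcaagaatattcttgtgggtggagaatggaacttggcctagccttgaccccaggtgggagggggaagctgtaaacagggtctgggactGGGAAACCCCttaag
Irak2 +4.6 kb, intron, chr6:113642958-113643157: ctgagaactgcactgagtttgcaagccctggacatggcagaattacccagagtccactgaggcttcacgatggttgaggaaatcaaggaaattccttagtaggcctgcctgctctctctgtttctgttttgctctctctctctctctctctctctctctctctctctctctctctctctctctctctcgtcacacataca

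Of these windows, Ly96 +49.6 kb held 2 matches to the κB consensus and Ly96 +7.7 kb 1 to the palindrome, while the window of Irak2 +4.6 kb held none of the 3 motifs. The Irak2 +4.6 kb window holds a tandem run of 57 bases. A tandem run of at least 30 bases, of a unit of up to 6, was in 1.95% of all windows and in 1 of the 36. No antibody other than p65 had a peak at Irak2 +4.6 kb. The promoter site of Myd88 had 2 overlapping κB matches, marked together in capitals and shown with the bases around them.
Myd88, promoter, chr9:119339932-119339961: atcccacgcGGGGGTCTCCCgcagacatgg

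RNA polymerase II was followed at the same genes. For RNAPII-pS5, LPS gave 1 gene higher and 1 lower of 9, against 25.4% of 12477 genes (0 and 1 without centring, against 29.4%). IL-4 gave 1 lower, against 8.66%, LPS in pretreated cells 1 higher, against 20.5%, and pretreated against untreated cells after LPS 0 in limma, against 10%, with 3 at an unadjusted p of at most 0.05, against 26.1%. The difference between the LPS responses gave 0, against 6.11%, with 1 at an unadjusted p of at most 0.05, against 22.6%. For RNAPII-pS2, LPS gave 1 higher and 1 lower of 9, against 26.7% of 13663 genes (1 and 0 without centring, against 26.5%), and pretreated against untreated cells after LPS 1 lower, against 8.46% (0 without centring, against 8.61%). IL-4 gave 0, against 14.4%, LPS in pretreated cells 0, against 20.4% (2 higher without centring, against 22.5%), and the difference between the LPS responses 0, against 6.38%. At an unadjusted p of at most 0.05 limma gave 4 (29.5% of all genes), 3 (35.1%) and 0 (22.4%) for these last 3 contrasts.

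At Cd14 the RNAPII-pS5 score summed over peaks was lower after IL-4 and rose when LPS followed. Its summed score was 32.8 and 23.2 in unstimulated cells, 7.29 and 6.99 after IL-4, 35.1 and 30.3 after LPS and 25.8 and 30.4 after both, with the IL-4 samples below all others. The change with IL-4 was −2.02 ± 0.29 (adjusted p = 0.0114 in limma) and with LPS in pretreated cells 2.09 ± 0.29 (adjusted p = 0.00538), which held in all 13 other settings and 8 leave-outs. The IL-4 call was lost with the highest score in place of the sum (−1.11, adjusted p = 0.0672 in limma). The sum ran over 4 and 3 peaks in unstimulated cells and 1 and 1 after IL-4. Over the promoter RNAPII-pS5 had 7.13 and 4.83 against 7.29 and 6.99. Summed RNAPII-pS2 had 56 and 39.7 against 45.2 and 52.9 and was not called. The difference between the LPS responses for RNAPII-pS5 was 1.52 ± 0.41 and did not pass (adjusted p = 0.0886 in limma). RNAPII-pS2 at Cd14 +13.1 kb, an intergenic site where p65 also rose, had 8.46 and 9.31, no peak after IL-4, 33.2 and 26.1 after LPS and 37.9 and 25.8 after both, and the LPS responses differed there by 2.77 ± 0.39 (adjusted p = 0.00755). At the Cd14 promoter RNAPII-pS2 had 27 and 13.7, then 39.9 and 40.5 after IL-4, and was not called.

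Myd88 gained RNAPII-pS5 with LPS, from 27.4 and 19.8 to 43.6 and 40.4, with 18 and 20.1 after IL-4 and 30.5 and 27.3 after both. The change with LPS was 1.18 ± 0.28 (adjusted p = 0.0268) centred and 0.85 uncentred (adjusted p = 0.0659). The promoter site bore it, with 6.05 and 6.23 in unstimulated cells and 27 and 20.7 after LPS (2.12 ± 0.34, adjusted p = 0.00614 in limma), whereas the site at +4.9 kb, by the transcript's end, had 16.5 and 13.5 against 16.6 and 19.7. RNAPII-pS2 at the Myd88 promoter had 9.3 and 8.93, no peak after IL-4, 16.9 and 17.3 after LPS and 12.1 and 12.5 after both, and the LPS responses differed by 2.25 ± 0.30 (adjusted p = 0.00674).

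At Irak4 RNAPII-pS5 fell with LPS, from 29.7 and 22.8 to 7.16 and 9.06 (−1.37 ± 0.27, adjusted p = 0.0152 in limma), with 22.8 and 22.1 after IL-4 and 11.9 and 10.9 after both. The RNAPII-pS5 lists as a whole held 14476 and 15349 peaks after LPS against 20803 and 19279 in unstimulated cells. The median change over all genes was −0.34 centred and −0.67 uncentred. With the highest score in place of the sum the Irak4 change was −0.54 (adjusted p = 0.374 in limma). The intronic site at +1.0 kb went from 15 and 12.4 to no peak (−3.06 ± 0.56, adjusted p = 0.0101), while the promoter site at +0.2 kb went from 14.7 and 10.4 to 7.16 and 9.06 and was not called.

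For RNAPII-pS2 peaks named for the gene, Irak2 fell with LPS and Irak3 rose. With all peaks over the gene's span neither was called in limma (−0.67, adjusted p = 0.193, and 0.52, adjusted p = 0.287). Irak3 was also not called without intergenic peaks (0.59, adjusted p = 0.217). The Irak3 difference between the LPS groups, given below, kept its call in 6 of 13 other settings. By gene span it was −0.22 (adjusted p = 0.768). Irak2 had 70.9 and 59.5 in unstimulated cells, 28.2 and 40.1 after IL-4, 29.2 and 29.2 after LPS and 25 and 14.7 after both. Its change with LPS was −1.38 ± 0.32 (adjusted p = 0.0256 in limma), and −1.15 uncentred (adjusted p = 0.0554). Irak3 had 19.6 and 22.1, then 9.8 and 13.1, then 46.4 and 41.8, then 23.2 and 20.3 in the same order. Its change with LPS was 0.86 ± 0.23 (adjusted p = 0.0422), and pretreated against untreated cells after LPS differed by −1.07 ± 0.23 (adjusted p = 0.0476) centred and by −1.02 uncentred (adjusted p = 0.065). Without the first or the second replicate of any group that last difference was not called, and its RNAPII-pS5 scores of 19.2 and 18 after LPS and 9.46 and 4.5 after both did not pass (adjusted p = 0.191).

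Most gene calls of the pretreatment experiment were lost when some 1 sample was left out, while the estimates moved by at most 0.39 on the log2 scale, at Ly96 for p65 with LPS (0.75 without the second unstimulated sample). Of 21 such calls, 5 kept adjusted p of at most 0.05 whichever of the 8 samples was left out, namely Cd14 for RNAPII-pS5 with LPS in pretreated cells and, for p65, Irak3 and Irak4 with IL-4, Myd88 with LPS and Irak4 with LPS in pretreated cells. The Irak4 and Myd88 calls among them set 1 group with no peak in either sample against another. Its values were the filled score and differed only by centring, so that a leave-out tests these calls little. With LPS, the calls of Irak2 for RNAPII-pS2 and Myd88 for RNAPII-pS5 were lost without any 1 of the 4 samples compared (adjusted p up to 0.101 and 0.107), and that of Irak4 for RNAPII-pS5 without the first unstimulated or the first LPS sample (up to 0.0766). The calls of Cd14 and Ticam1 for p65 and Irak3 for RNAPII-pS2 were lost without any 1 of those 4 or of the pretreated LPS samples (up to 0.103, 0.119 and 0.155), and that of Ly96 for p65 likewise but not without the first unstimulated sample (up to 0.165). For p65, the LPS calls of Ly96 and Irak3 in pretreated cells were lost without either pretreated LPS sample, and that of Irak3 also without the first IL-4 sample (up to 0.0555 and 0.123). The lower p65 of pretreated cells after LPS was lost for Irak4 without either pretreated LPS sample (up to 0.0703) and for Irak3 without any LPS or unstimulated sample (up to 0.283). With IL-4, RNAPII-pS5 at Cd14 was lost without the first unstimulated or either IL-4 sample (up to 0.0603) and p65 at Myd88 without the second unstimulated sample (0.0508). The difference between the LPS responses was lost for Irak4 without either pretreated LPS sample (up to 0.103) and for Myd88 without those or either unstimulated sample (up to 0.121). No estimate changed sign in these leave-outs.

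**Figure D5:**
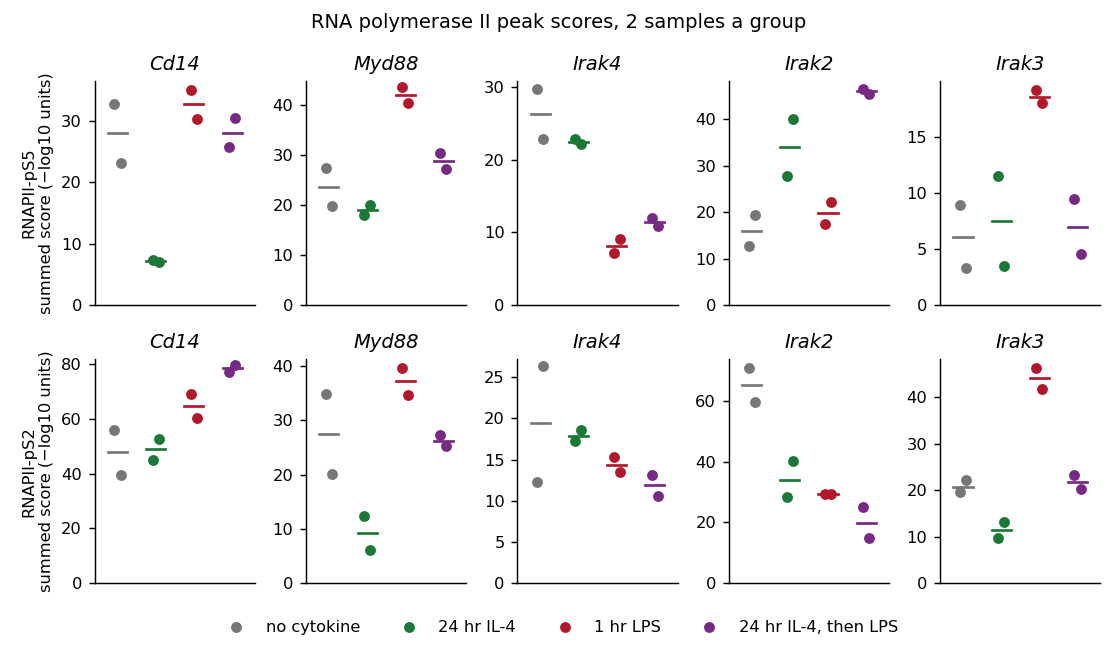
Summed RNAPII-pS5 (upper row) and RNAPII-pS2 (lower row) peak scores (−log10 units, axes from 0 that differ between panels) of 5 genes in the pretreatment experiment. Points are samples and bars means of 2 samples. RNAPII-pS5 at Cd14 is lowest after 24 hr IL-4, and RNAPII-pS2 at Irak3 is highest after 1 hr LPS.

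Single Irak3 sites gave the following. At +10.1 kb, the p65 site described above, RNAPII-pS2 had 4.26 and 4.74 in unstimulated cells, no peak after IL-4, 24.6 and 19.8 after LPS and 10.5 and 3.36 after both, with a change of 2.10 ± 0.52 with LPS (adjusted p = 0.0252 in limma). RNAPII-pS5 at the same place appeared after LPS alone, with 4.7 and 3.29, and pretreated against untreated LPS samples differed by −1.64 ± 0.27 (adjusted p = 0.0123). Upstream of the gene, at −3.3 kb, RNAPII-pS2 was found after LPS (9.24 and 12.1) and after both (8.32 and 9.6) and in no sample without LPS. At +10.1 kb both p65 and RNAPII-pS2 were thus lowest after IL-4 alone and highest after LPS alone.

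Irak2 had a further intronic site, at +18.9 kb, where RNAPII-pS5 was higher after each treatment. It had no peak in unstimulated cells, 19.9 and 16.2 after IL-4, 6.52 and 8.3 after LPS and 36.2 and 31.9 after both. The 4 groups did not overlap. All contrasts were called, with 3.62 ± 0.24 for IL-4 (adjusted p = 0.00216 in limma), 2.53 ± 0.24 for LPS (adjusted p = 0.00135) and 2.02 ± 0.24 for pretreated against untreated cells after LPS (adjusted p = 0.00504). At the start of Irak2, RNAPII-pS5 had 7.89 and 4.81 in unstimulated cells and 7.88 and 12.8 after IL-4, and no peak in any of the 4 LPS samples. The RNAPII-pS5 lists of LPS samples also held fewer peaks in all. Of the other antibodies p300 alone had peaks at +18.9 kb.

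At Ly96 the polymerase values differed between sites. RNAPII-pS2 at +59.0 kb fell with LPS, from 29.5 and 29.2 to 4.73 and 5.81 (−2.68 ± 0.24, adjusted p = 0.00067 in limma), and had 8.25 and 7.55 after both. At +14.6 kb, where p65 was highest after both treatments, RNAPII-pS2 had 20.4 and 11.7 after LPS and 30.9 and 36.6 after both, which was not called in that contrast. Traf6 +21.0 kb, where H3K27Ac was lower after 1 hr IL-4, had RNAPII-pS5 of 7.89 and 6.71 in unstimulated cells and no peak after 24 hr IL-4 (−2.35 ± 0.36, adjusted p = 0.00731), and RNAPII-pS2 of 5.96 and 6.36 against no peak (−2.10 ± 0.22, adjusted p = 0.00178).

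By count, RNAPII-pS5 sites of the members gave 7 higher and 3 lower of 26 with LPS, against 29.8%, 2 higher and 3 lower with IL-4, against 16.7%, and 1 higher and 4 lower for pretreated against untreated cells after LPS, against 13.9% (2 and 4 without centring, against 14.5%). LPS in pretreated cells gave 6 higher and 2 lower, against 28.8%, and the difference between the LPS responses 5 negative calls, against 17.1%. RNAPII-pS2 sites gave 6 higher and 6 lower of 30 with LPS, against 33.3%, 0 higher and 7 lower with IL-4, against 21.6%, and 1 higher and 2 lower for pretreated against untreated cells, against 17.4%. LPS in pretreated cells gave 7 higher and 1 lower, against 30.3%, and the difference between the LPS responses 4 positive and 1 negative, against 19.7%.

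The other genes of the TLR4 pathway were followed as a list of 24, from the receptor Tlr4 to the kinases and transcription factors at its ends. H3K27Ac after 1 hr IL-4 was higher at 3 and lower at 7 of 21 tested, against 32.8% called among all genes and beside the 3 lower of 9 members. Tlr4 was among the higher (0.57 ± 0.06, adjusted p = 0.0109), as was Tab3, an adaptor of the kinase TAK1 (0.98), while Ikbke, a kinase upstream of interferon genes, was lower (−0.85). p65 after LPS was higher at 7 of 18 and lower at 0, against 28.1%, and higher at 15 of 18 without centring, against 51.6%, with the largest centred changes at Ticam2, the bridging adaptor between TLR4 and TRIF (3.87), Ikbkb, a kinase of the IKK complex (2.89), and Tab2 (2.58). After IL-4 alone p65 was higher at Ticam2 (2.48) and Tlr4 (1.97) and lower at none of 18, against 5.96%. With LPS in pretreated cells 2 were higher and 1 lower, against 26.7%, and 17 were higher without centring, against 72.2%, where Map3k7, the TAK1 gene, turned from −0.81 to 1.48.

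RNAPII-pS5 at the pathway genes gave 3 higher and 2 lower of 21 with LPS, against 25.4% (2 and 3 without centring, against 29.4%), led by Ripk1, a kinase of TRIF and TNF signalling (3.0), Tab1 (−2.55) and Tollip, an inhibitor of the IRAKs (−2.31). RNAPII-pS2 gave 2 higher and 1 lower of 21, against 26.7%, which were Traf3 (2.36), the ubiquitin-conjugating enzyme gene Ube2n (1.18) and Chuk (−2.81). LPS in pretreated cells raised RNAPII-pS5 at Peli1, a ubiquitin ligase that acts on the IRAKs (1.86), Ikbke (1.45) and Tbk1 (1.15), with none lower, against 20.5%. IL-4 alone gave 0 calls of 21 for either polymerase form in limma, against 8.66% for RNAPII-pS5 and 14.4% for RNAPII-pS2, with 1 and 3 at an unadjusted p of at most 0.05, against 21.6% and 29.5%.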

How the data were processed

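Per the submitters' processing notes and the study's methods, the authors aligned reads to mm10 with BWA 0.7.10 (SAMtools 0.1.19), called peaks of factors with MACS2 2.0.10 and of H3K27Ac with HOMER 4.2, and annotated each peak with its nearest gene. No input control is stated. The 52 deposited MACS2 lists hold one −log10 score per peak, of a p or q value that is not stated, and the 4 deposited H3K27Ac lists hold the HOMER signal as a score. Peaks were called by the authors in each sample separately. The score depends on depth, which is unknown.

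Scores were summed per gene name and sample, log2-transformed after a missing gene was given the antibody's lowest score (9.1 for H3K27Ac, 1.3 to 1.44 for the others), and centred on the median over genes that had peaks throughout the samples. Genes with peaks in 2 samples or more entered limma 3.58.1 (R 4.3.3), fitted over all genes of an antibody and experiment, 4 or 8 samples at a time, with Benjamini-Hochberg adjustment and a threshold of 0.05. Peaks overlapping by at least 1 bp between samples were joined into sites and tested likewise. Calls with no peak in either group compared were left out of counts, for the members and for all features. A filled value has no spread of its own, so that SEs and p-values of features with absent peaks can understate the spread between samples. The scripts were tested on simulated data. Elements, windows and motifs were computed in Python 3.11.15 with pandas 2.3.3 and numpy 2.4.6, and plots with matplotlib 3.10.9. Gene spans and sequences came from the GRCm38.p6 reference.

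The members, the pathway list and the marker lists were chosen with earlier results of these data known. The rule for naming took all 10 members, the site nearest each start, the strongest farther site, each called site and at most 3 called pathway genes per comparison, and sites it took that the text does not give singly are in the counts. Alternatives changed the scaling, the floor, the filter, the peaks counted, the samples in the fit, the replicate block and each replicate in turn. Counting by gene span, a minimum score of 2 and centring before filling were chosen after seeing the data. Overlaps between antibodies were not tested. Sequences of the other p65 windows are not reported here.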

Additional observations from a re-analysis of the deposited data

Results flagged for a closer look

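These values are differences between 2 LPS responses, the log2 change with LPS in IL-4-pretreated cells minus that in untreated cells, that passed in limma as an interaction term. For p65 summed per gene they were Irak4 (−4.25, adjusted p = 0.0115) and Myd88 (−2.61, adjusted p = 0.0164). The Myd88 call was lost without intergenic peaks (−0.40, adjusted p = 0.629) and with the upper 50% of peaks (−0.84, adjusted p = 0.181). It was also lost by gene span (−0.90, adjusted p = 0.2) and with a floor 4 times as high (−0.72, adjusted p = 0.0959). The Irak4 call was lost by gene span (−3.49, adjusted p = 0.147) and with that floor (−0.65, adjusted p = 0.0525). For single p65 sites the positive ones were Ly96 +8.3 kb (2.08), Ly96 +49.6 kb (2.47), Irak3 +10.1 kb (3.38) and Traf6 +30.3 kb (3.17), with adjusted p from 0.00255 to 0.0292. The negative ones were Irak3 +11.1 kb (−2.15), Irak4 +0.2 kb (−4.07), Traf6 +21.1 kb (−2.55), Irak2 +11.8 kb (−3.41) and Myd88 +5.5 kb (−2.71), with adjusted p from 0.00255 to 0.0128. For RNAPII-pS2 sites they were Irak4 +22.3 kb (−1.79), Cd14 +13.1 kb (2.77), Irak2 +11.8 kb (1.68), Irak2 +21.4 kb (2.56) and Myd88 −0.3 kb (2.25), with adjusted p from 0.00674 to 0.017. For RNAPII-pS5 sites they were Ly96 +14.6 kb (−1.92), Ly96 +58.9 kb (−2.43), Irak3 +10.1 kb (−1.62), Irak3 −1.8 kb (−1.45) and Irak2 +18.9 kb (−1.61), with adjusted p from 0.0175 to 0.0367. Each of these features lacked a peak in both samples of at least 1 of the 4 groups, so that the size and the adjusted p depend on the score given to an absent peak. With a floor 4 times as high the sign also turned for RNAPII-pS5 at Irak2 +18.9 kb (0.39) and for RNAPII-pS2 at Irak4 +22.3 kb (0.01).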

How the results depend on the processing

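The number of genes called, counted over antibodies, was 3 for 1 hr IL-4, 8 for LPS and 4 for 24 hr IL-4. It was 3 for pretreated against untreated cells after LPS, 4 for LPS in pretreated cells and 2 for the difference between the LPS responses. The number of site calls was 12 in the 1 hr and 120 in the pretreatment experiment. Shares called among all genes and sites are given above by antibody. The counts below stand without the share under the same setting, so that a rise or fall in them is no result about these genes. With a floor 4 times as high the counts were 5 for 1 hr IL-4, 6 for pretreated against untreated cells after LPS and 10 for LPS in pretreated cells. The last 2 include Irak4 for p65, whose scores all lay below that floor. Without centring those last 2 were 1 and 11, and with the upper 50% of peaks 6 and 8. With quantile normalization LPS gave 5. Counting peaks by gene span gave 4 for LPS, 2 for 24 hr IL-4, 0 for pretreated against untreated cells and 0 for the difference between responses. Requiring a peak in every sample gave 1 and 0 for these last 2, a peak in at least 1 sample gave 1 for the first of them, and leaving out intergenic peaks 1 for the second. With only the 4 samples compared LPS gave 5, 24 hr IL-4 1 and pretreated against untreated cells 1. At an unadjusted p of at most 0.05 the counts were 10 for 1 hr IL-4, 10 for 24 hr IL-4, 7, 11 and 4 for the last 3. At 1 hr, from 8.86% to 25.8% of all genes passed that rule for the antibodies other than H3K27Ac.

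Samples of the same replicate number shared only the number (correlation of their deviations from −0.03 to 0.07), and a replicate block gave 1 gene for pretreated against untreated cells after LPS and 6 site calls at 1 hr. Leaving out 1 sample at a time gave 0 to 0 genes for 1 hr IL-4, 1 to 8 for LPS, 3 to 6 for 24 hr IL-4, 0 to 2, 2 to 6 and 0 to 3 for the last 3, and 4 to 9 and 81 to 110 site calls. The lowest LPS count was without the first LPS sample and the lowest site counts without the first ctrl and the second unstimulated sample.

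The direction of some changes turned. With a floor 4 times as high these were, for H3K27Ac after 1 hr IL-4, Ly96 +8.3 kb (0.05) and Ly96 +59.0 kb (0.05). For RNAPII-pS2 they were Irak4 +22.3 kb with LPS (−0.19), between the LPS groups (0.06) and in the difference of responses (0.01), Irak2 +11.8 kb with IL-4 (0.05) and Traf6 +21.0 kb between the LPS groups (0.06). For RNAPII-pS5 they were Cd14 +2.4 kb at 1 hr (0.11), Ly96 +14.6 kb with IL-4 (−0.02) and Irak2 +18.9 kb in the difference of responses (0.39). For p65 with LPS they were Irak4 (−1.64), Irak4 +0.2 kb (−1.05), Traf6 +21.1 kb (−0.94) and Irak2 +11.8 kb (−0.10), and with LPS in pretreated cells Ly96 +49.6 kb (−0.58) and Irak3 +11.1 kb (−0.92). Without centring p65 turned at Irak3 with LPS (1.52) and Irak2 with LPS in pretreated cells (1.98). By gene span p65 at Myd88 turned with LPS (−0.50) and with LPS in pretreated cells (−1.40). Joining gaps of up to 500 bp turned Cd14 +2.4 kb for RNAPII-pS2 with IL-4 (1.12) and with LPS in pretreated cells (−0.97), and for RNAPII-pS5 at 1 hr (0.11). The raised floor replaced absent peaks and also called scores below it. It lay above every score of Irak4 for p65 and of the Ly96 sites for H3K27Ac. The values given for these are the centring shift alone and no reversal. The cause of the other turns was not tested. Depth was not given, so that an absent peak says only that none was called.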
